A study of Rattus norvegicus with 24 samples.

Results

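The genes described here are 10 genes of brain endothelium and the blood-brain barrier: Cldn5, Ocln, Tjp1, Pecam1, Cdh5, Slc2a1, Abcb1a, Mfsd2a, Flt1 and Kdr. They were taken by name from a table of 42334 loci, of which 26641 carried a gene name. All 10 had a locus and all 10 passed the filter on low values in every comparison. Each was found at 1 locus except Mfsd2a, which had 2 loci on the same coordinates, and the locus that held most of its fragments was used.

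mRNA was sequenced from perilesional cortex and ipsilateral thalamus of adult male Sprague-Dawley rats 3 months after lateral fluid-percussion injury, a model of traumatic brain injury (TBI) in which a fluid pulse strikes the exposed dura. The paper states that the sequenced TBI rats were picked for a chronic inflammatory phenotype, with MRI used to find raised T2 signal around the lesion. They therefore do not stand for all rats after TBI. Sham-operated controls had anaesthesia and the craniectomy without the impact, so an opened skull is common to both treatments. There were 4 groups of 6 libraries, namely TBI cortex, sham cortex, TBI thalamus and sham thalamus, from 12 rats numbered in the labels, each giving both regions. Both regions were cut from a single coronal slice of each brain, and each library comes from a whole tissue piece in which vessels are a small part. In bulk tissue of this kind, fewer cells of a type and less RNA per cell cannot be told apart.

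The endothelial cells of brain capillaries seal the gaps between them with tight junctions and let few molecules cross in vesicles. They therefore carry dedicated transporters that bring in glucose, amino acids and lipids, and pumps that return drugs to the blood. Growth factors of the VEGF family, made largely by astrocytes and neurons, reach the same cells through tyrosine kinase receptors. Some of the genes are also used outside endothelium: occludin and ZO-1 are parts of epithelial tight junctions, including those of the choroid plexus, and Slc2a1 is also expressed in astrocytes.

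Libraries held between 30568927 and 54608922 fragments. Values are normalized counts, that is fragment counts divided by a scaling factor of each library, with no division by gene length, so levels are compared between groups and not between genes. Regional markers followed the labels of the dissections: in sham rats 8 of 8 markers of cortex identity were lower and 8 of 9 of thalamus identity higher in thalamus than in cortex. Endothelium was present in every library, with the summed normalized count of 13 other endothelial loci between 9118 and 16776, although Cd34 was listed at 0 in all libraries. Choroid plexus transcripts stood apart in 6 libraries, where the sum of 9 markers passed 10000. These were the cortex of sham rats 26 and 34 and of TBI rat 45, and the thalamus of sham rats 34 and 50 and of TBI rat 45. The highest sum, 272010, was that of the thalamus of TBI rat 45, against 907 to 2180 in the other 5 TBI thalamus libraries. Calls between TBI and sham rats, and those of the 10 genes between regions, are therefore also given without these 6 libraries where they change.

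In the perilesional cortex, 2 of the 10 genes rose after TBI, 1 fell and 7 did not pass the test. Cdh5 rose 1.30-fold and Slc2a1 rose 1.15-fold, while Mfsd2a was 1.16-fold lower. The test was limma on log2(normalized count + 1) with Benjamini-Hochberg adjustment over 15493 loci, and 0.05 was the threshold on the adjusted p. Among all loci tested 29.2% passed, 14.3% upward and 14.9% downward, so 3 of 10 is near the background share. The median log2 fold change of the 10 genes was 0.11, against -0.0096 over all loci. No gene had TBI values all above or all below the sham values; 7.02% of all loci were wholly above and 5.45% wholly below. Without the 3 choroid-rich cortex libraries none of the 10 genes passed, and the share of all loci called fell from 29.2% to 14%. Among all loci called in the cortex 50.9% were lower, or 39.4% with upper quartile scaling.

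In the ipsilateral thalamus, 2 of the 10 genes rose and none fell. Pecam1 rose 1.29-fold and Tjp1 rose 1.21-fold. Of 15564 loci tested there 35.4% passed, 14.5% upward and 20.9% downward, against 2 of the 10 genes. Their median log2 fold change was 0.22, against -0.023 over all loci, and 9 of the 10 fold changes were positive. Pecam1 alone had every TBI value above every sham value, which held for 7.46% of all loci. Without the 3 choroid-rich thalamus libraries 4 genes rose, Ocln and Kdr besides the same 2, against 27.3% of loci called. Among all loci called in the thalamus 59.0% were lower, or 42.3% with upper quartile scaling, under which 4 of the 10 genes rose against 32.7% of loci called. DESeq2 called 6 of the 10 and 36.6% of loci, so the place of the 10 genes against the background turned with the tool and the libraries used.

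**Figure D1:**
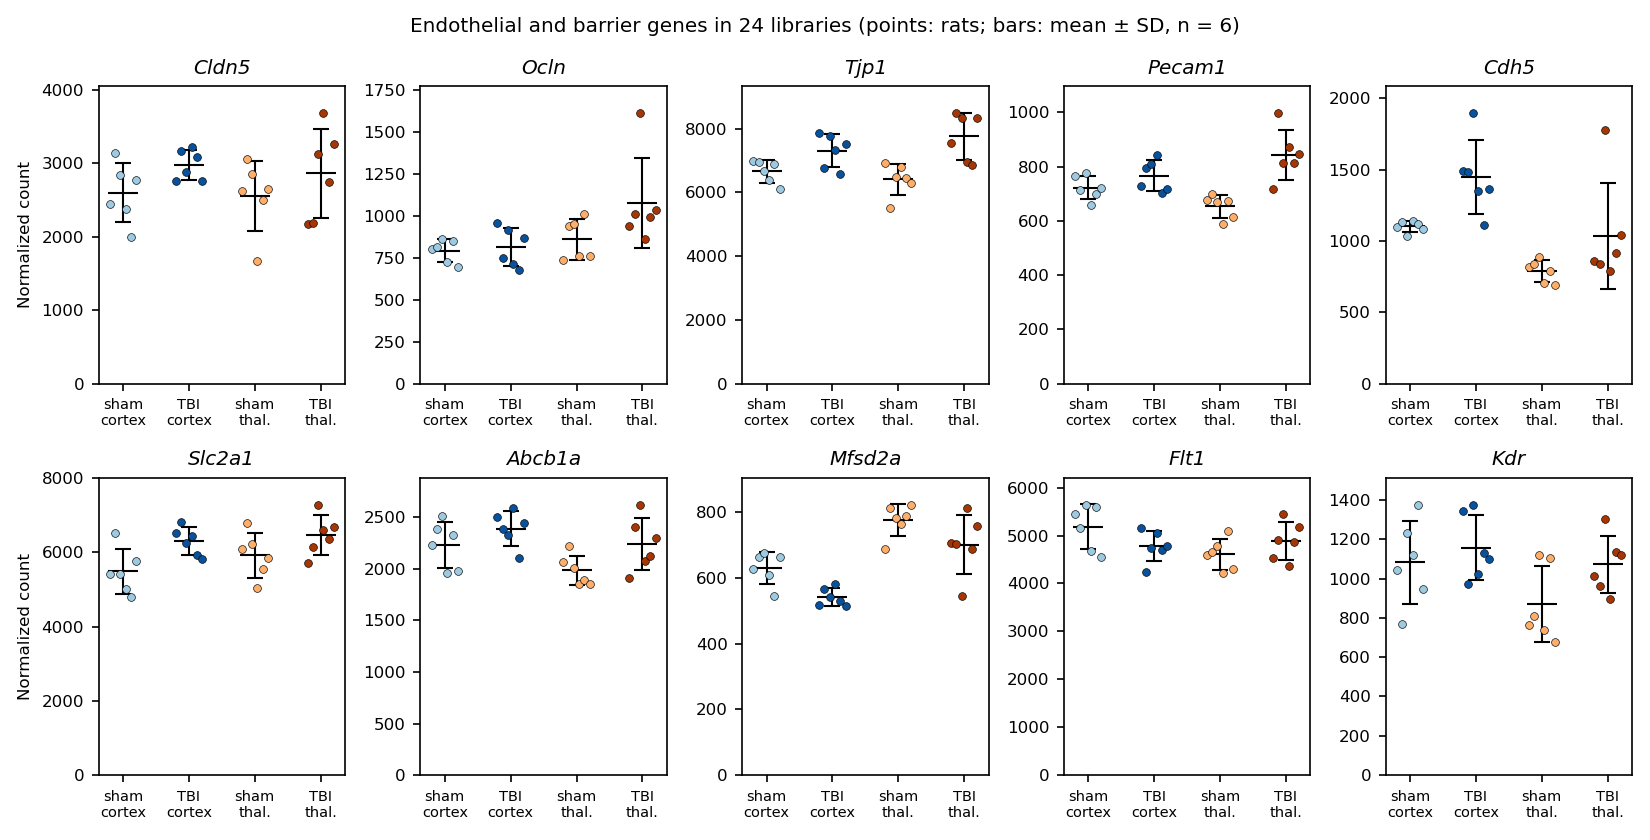
Normalized count (y axis, linear, from 0) of each of the 10 genes in the 4 groups (x axis), with 1 point for each rat and bars for the mean ± SD of 6 rats. Cdh5 and Mfsd2a do not overlap between the regions in sham rats, and the thalamus of TBI rat 45 stands above its group for Ocln (1614) and Cdh5 (1777).

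The genes are taken in order of their role, starting with the proteins of the tight junction. Claudin-5, encoded by Cldn5 on chromosome 11 (89458168 to 89460379), is the main claudin of brain capillaries. In the cortex its lowest, median and highest normalized counts were 2000, 2608 and 3136 in sham rats and 2758, 2981 and 3218 in TBI rats. All 6 TBI values lay above the sham mean, but the groups overlapped and the log2 fold change of 0.21 (SE 0.090) did not pass (limma, adjusted p = 0.0913). Without sham rat 32, the highest of the sham cortex, it did pass (log2 fold change 0.27, adjusted p = 0.0271). In the thalamus the values were 1672, 2635 and 3056 in sham rats and 2166, 2940 and 3683 in TBI rats. This was the most variable of the 10 genes in the sham thalamus after Kdr, with a coefficient of variation of 18.6%, and its log2 fold change of 0.16 had a 95% interval from -0.17 to 0.49 (adjusted p = 0.454). Without sham rat 38 the value was 0.041.

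Occludin, encoded by Ocln on chromosome 2 (49686709 to 49737576), spans the membrane at the same junction. Its cortical values were 695, 810 and 861 in sham rats and 677, 809 and 959 in TBI rats, with near-equal medians. Of the 6 TBI values, 3 lay above every sham value and 1 lay below every sham value. The log2 fold change was 0.033 (SE 0.091, adjusted p = 0.817), and it took the other sign when sham rat 55, TBI rat 22 or TBI rat 45 was left out. In the thalamus the sham rats gave 735, 851 and 1012 and the TBI rats 863, 1004 and 1614. The highest of these is rat 45, the next is 1035, and the log2 fold change was 0.30 (SE 0.13, adjusted p = 0.0942), or 0.18 without that library. It passed with DESeq2 (adjusted p = 0.0380) and in 1 fit of all libraries (adjusted p = 0.0497). Without the choroid-rich libraries Ocln was higher in the TBI thalamus by a log2 fold change of 0.28 (adjusted p = 0.0307).

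Tjp1, on chromosome 1 (127243000 to 127497810), encodes ZO-1, the scaffold that ties claudins and occludin to actin. In the thalamus its normalized counts were 5509, 6467 and 6931 in sham rats and 6858, 7945 and 8493 in TBI rats. Of the 6 TBI values, 5 lay above every sham value. It rose by a log2 fold change of 0.27 (SE 0.069, adjusted p = 0.00711), and the call held with every single library left out (0.23 to 0.31). In the cortex the values were 6101, 6782 and 6987 in sham rats and 6582, 7436 and 7856 in TBI rats, a log2 fold change of 0.13 that did not pass (SE 0.054, adjusted p = 0.0806). With upper quartile scaling, or without TBI rat 56, the cortical value passed (adjusted p = 0.0393 and 0.0366).

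The next pair joins endothelial cells to each other outside the tight junction. Pecam1, on chromosome 10 (94598892 to 94632589), encodes the adhesion molecule CD31, which is also carried by platelets and leukocytes. Its thalamic values were 587, 672 and 699 in sham rats and 719, 829 and 998 in TBI rats, with no overlap between the groups. It rose by a log2 fold change of 0.36 (SE 0.075, adjusted p = 0.00192), was called under every alternative, and ranged from 0.31 to 0.41 when single libraries were left out. In the cortex the values were 658, 718 and 776 in sham rats and 703, 762 and 844 in TBI rats. The log2 fold change there was 0.085 (SE 0.063, adjusted p = 0.335). Markers of microglia and macrophages moved alongside: 12 of 14 rose in each region. Of all loci 14.3% rose in the cortex and 14.5% in the thalamus. The thalamic sum of these markers was 14937 to 19780 in sham rats and 30624 to 40192 in TBI rats. The sum of 7 lymphocyte markers was 706 to 1089 in the sham thalamus and 2527 to 4182 in the TBI thalamus. Only 1 of the 7 passed the filter on low values there, a mean of 10, so this sum is largely that of 1 locus. After each group's mean was subtracted, Pecam1 had r = 0.44 with the microglia and macrophage sum and -0.052 with the lymphocyte sum. The part of these cells in the Pecam1 value was not tested.

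Cdh5, on chromosome 19 (1021283 to 1037678), encodes VE-cadherin, the cadherin of endothelial adherens junctions. In the cortex the sham values were tight, at 1038, 1109 and 1142, and the TBI values were 1110.2, 1427 and 1898. In 5 of the 6 TBI rats the value was above every sham rat, and rat 56 fell inside the sham range. The log2 fold change was 0.38 (SE 0.094, 95% interval 0.18 to 0.58, adjusted p = 0.00763). It was called with every single library left out (0.30 to 0.45), but not without the 3 choroid-rich cortex libraries (0.27, adjusted p = 0.0528). In the thalamus the values were 690, 806 and 889 in sham rats and 792, 886 and 1777 in TBI rats, and the log2 fold change of 0.34 did not pass (SE 0.16, adjusted p = 0.116). Without TBI rat 45 that value was 0.17.

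Markers of fibroblasts and meninges moved with Cdh5 in the cortex. In the TBI cortex 7 of 9 of them rose, against 14.3% of all loci, with a median log2 fold change of 0.78. Their cortical sum was 11887 to 14729 in sham rats and 15548 to 33495 in TBI rats. In the TBI thalamus none of the 9 passed, while the sum ran from 5849 to 32248. After each group's mean was subtracted, Cdh5 correlated with this sum at r = 0.91 over the 24 libraries. It correlated nearly as closely with the sum of the other endothelial markers (0.87), and less so with mural cells (0.71), erythroid cells (0.66) and choroid plexus (0.65). The 3 loci most like Cdh5 were Bgn, Antxr2 and Sned1, and Bgn reached r = 0.95. The part of meningeal tissue in the Cdh5 value was not tested.

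Among the transporters, Slc2a1, on chromosome 5 (141964113 to 141992634), encodes GLUT1, which carries glucose across the barrier. Its cortical values were 4791, 5403 and 6520 in sham rats and 5809, 6345 and 6816 in TBI rats. All 6 TBI values lay above the sham mean, and 2 lay above every sham value. The log2 fold change was 0.20 (SE 0.068, adjusted p = 0.0337), and the call was lost in 8 of the 12 fits that left out 1 library (highest adjusted p = 0.0797) and without the choroid-rich libraries (adjusted p = 0.156). In the thalamus it was 5024, 5974 and 6796 in sham rats and 5720.0, 6479 and 7285 in TBI rats, a log2 fold change of 0.13 (SE 0.072, adjusted p = 0.188).

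Abcb1a, on chromosome 4 (22276379 to 22593673), encodes P-glycoprotein, the efflux pump of the luminal membrane. In the cortex its values were 1958, 2280.3 and 2515 in sham rats and 2106, 2414 and 2590.3 in TBI rats. In the thalamus they were 1852, 1955 and 2219 in sham rats and 1911, 2212 and 2625 in TBI rats. Neither log2 fold change passed, at 0.10 in the cortex (SE 0.070, adjusted p = 0.289) and 0.17 in the thalamus (SE 0.074, adjusted p = 0.0889). Its paralogue Abcb1b was counted far lower. In the cortex it rose by a log2 fold change of 0.61, from a mean of 17.6 in sham to 27.5 in TBI rats, but the call was lost without sham rat 32, sham rat 38 or TBI rat 45 (adjusted p of up to 0.0669) and without the choroid-rich libraries (adjusted p = 0.0813). In the thalamus its means were 5.47 in sham and 15.4 in TBI rats, and it passed the filter, a mean of 10, only through the TBI rats, so its call there is given no weight. In the cortex every TBI value of Abcb1b was above every sham value, which held for 7.02% of all loci. How fragments of sequence common to the paralogues were counted was not tested, so both genes are uncertain.

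Mfsd2a, on chromosome 5 (144433446 to 144448324), encodes a lipid transporter that takes up docosahexaenoic acid in the form of lysophospholipid and restrains vesicle traffic in barrier endothelium. It was the only one of the 10 genes that fell. Its cortical values were 546, 645 and 677 in sham rats and 514, 537 and 582 in TBI rats, and 4 of 6 TBI values lay below every sham value. The log2 fold change was -0.22 (SE 0.065, adjusted p = 0.0212), and the call was lost without sham rat 34 (adjusted p = 0.0506) and without the choroid-rich libraries (-0.19, adjusted p = 0.141). In the thalamus the values were 688, 786 and 824 in sham rats and 545, 705 and 813 in TBI rats, a log2 fold change of -0.15 that did not pass (SE 0.085, adjusted p = 0.179). The lowest of these was again rat 45, and without the choroid-rich libraries the value was -0.073.

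**Figure D2:**
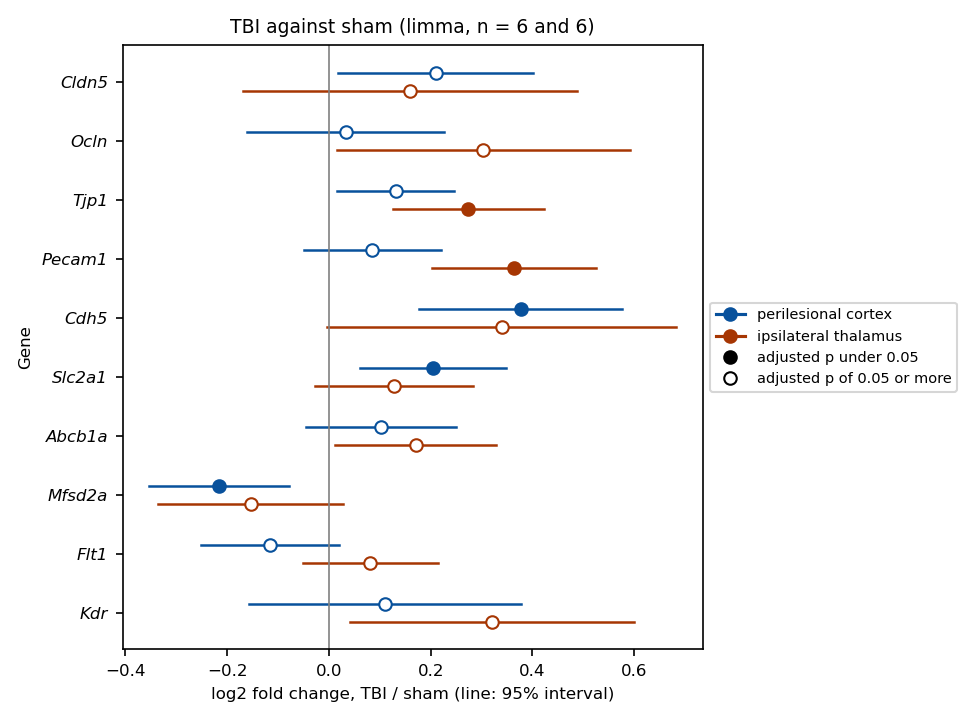
Log2 fold change of TBI over sham (x axis) for each of the 10 genes (y axis), in the perilesional cortex (blue) and the ipsilateral thalamus (brown), with lines for the 95% interval of limma from 6 TBI and 6 sham rats. Filled points have an adjusted p under 0.05; these are Cdh5, Slc2a1 and Mfsd2a in the cortex and Tjp1 and Pecam1 in the thalamus.

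The last pair are VEGF receptors. Flt1, on chromosome 12 (11154955 to 11449762), encodes VEGFR1, which binds VEGF-A tightly and signals weakly. Its cortical values were 4562, 5304 and 5647 in sham rats and 4248, 4762 and 5147 in TBI rats, and its thalamic values were 4218, 4629 and 5097 in sham rats and 4359, 4885 and 5451 in TBI rats. The log2 fold changes were -0.12 in the cortex (SE 0.064, adjusted p = 0.190) and 0.082 in the thalamus (SE 0.062, adjusted p = 0.331). Kdr, on chromosome 14 (34557360 to 34618109), encodes VEGFR2, the main signalling receptor for VEGF-A. Its cortical values spread widely, at 770, 1084 and 1377 in sham rats and 971, 1117 and 1377 in TBI rats. In the thalamus they were 679, 786 and 1118 in sham rats and 898, 1066 and 1303 in TBI rats. All 6 TBI values in the thalamus lay above the sham mean, and the log2 fold change of 0.32 (SE 0.13) did not pass (adjusted p = 0.0705). It passed without the choroid-rich libraries (0.45, adjusted p = 0.00213), and in the cortex the log2 fold change was 0.11 (SE 0.13, adjusted p = 0.543).

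The ligand of both receptors moved further than either receptor. Vegfa fell by 0.57 on the log2 scale in the cortex (adjusted p = 0.000337) and by 0.51 in the thalamus (adjusted p = 4.08e-05). In both regions every TBI value was below every sham value, with cortical means of 2818 in TBI and 4180.3 in sham rats. Neuronal markers fell beside Vegfa, 8 of 11 in the cortex (median log2 fold change -0.30, against 14.9% of all loci lower) and 10 of 11 in the thalamus (-0.63, against 20.9%). Astrocyte markers mostly did not: 5 of 9 rose and 2 fell in the cortex, and 5 of 9 rose and 0 fell in the thalamus. Of all loci 14.3% rose in the cortex and 14.5% in the thalamus. The part of neurons and astrocytes in the Vegfa value was not tested.

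Other barrier genes were taken from a list of 25 named for their role. In the cortex 7 of them rose and 2 fell, against 14.3% and 14.9% of all loci. In the thalamus 14 rose and 2 fell, against 14.5% and 20.9%. The 14 include Abcb1b, whose thalamic call is given no weight. This list and the gene lists below were chosen with earlier results of these data known, so their counts are a description and not a test. At the junction, F11r, which encodes the junctional adhesion molecule JAM-A, rose by a log2 fold change of 0.19 in the cortex (adjusted p = 0.0363, lost in 7 of the 12 fits without 1 library and without the choroid-rich libraries) and by 0.41 in the thalamus (adjusted p = 0.00527). Jam2 rose by 0.24 in the thalamus (adjusted p = 0.00146), and Esam by 0.26 (adjusted p = 0.0376, also lost in 7 of 12 such fits and without the choroid-rich libraries).

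Among genes of endothelial identity, Tie1, an orphan receptor of the angiopoietin system, rose in both regions, by 0.25 in the cortex (adjusted p = 0.0213) and 0.38 in the thalamus (adjusted p = 0.0169). The cortical call was lost without sham rat 38 (adjusted p = 0.0516) or TBI rat 45 (adjusted p = 0.0515), and both calls were lost without the choroid-rich libraries (adjusted p = 0.145 and 0.0634). In the thalamus Tek, the angiopoietin receptor, rose by 0.27 (adjusted p = 0.0182) and Emcn, which encodes endomucin, by 0.48 (adjusted p = 0.00314). The transcription factor gene Erg did not pass in the cortex (-0.070) or the thalamus (0.16). Over 20 tested genes of endothelial junctions and identity outside the 10, 3 rose in the cortex, near the 14.3% of all loci that rose, and 10 in the thalamus, where 14.5% did, and none fell. The medians of the list were 0.16 and 0.31.

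Of the transporters, Slc7a5, which encodes the large neutral amino acid carrier LAT1, rose in both regions without overlap, from 2795 to 3559 in the cortex and from 2696 to 3732 in the thalamus. Its log2 fold changes were 0.35 (adjusted p = 0.000594) and 0.47 (adjusted p = 1.83e-05). Slc16a1, the lactate carrier MCT1, rose in the thalamus (0.34, adjusted p = 0.000384) and did not pass in the cortex (0.17, adjusted p = 0.0743). Abcg2, a second efflux pump, passed in neither region (0.18 and 0.39). Tfrc, the transferrin receptor, fell in the cortex by 0.63 (adjusted p = 0.000678, every TBI value below every sham value), and its thalamic value was -0.092 (adjusted p = 0.405). The difference between the regions passed for Tfrc (0.54, adjusted p = 0.0218), but not without rat 50 (adjusted p = 0.0541) or without the choroid-rich libraries (adjusted p = 0.147). Over 16 tested barrier transporters and receptors outside the 10, 4 rose and 2 fell in the cortex, against 14.3% and 14.9% of all loci. In the thalamus 7 rose and none fell, against 14.5% and 20.9%. The 7 include Abcb1b, whose thalamic call is given no weight.

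Genes of vesicles and fenestrae came next. Plvap encodes the diaphragm protein of fenestrated and leaky vessels, and it fell in the thalamus by 0.69 (adjusted p = 8.26e-05), from a mean of 669 in sham to 414 in TBI rats with no overlap. Of all loci 10.7% had thalamic TBI values wholly below the sham values. The cortical level of Plvap was far lower, 71.3 in sham and 61.8 in TBI rats, with no call (adjusted p = 0.611). Cav1, which encodes the coat protein of caveolae, rose in the thalamus (0.40, adjusted p = 0.000775), and its cortical value was 0.20 (adjusted p = 0.111). The pericyte gene Pdgfrb rose by 0.46 in the cortex (adjusted p = 0.000321) and by 0.37 in the thalamus (adjusted p = 0.0173). Rgs5, also of pericytes, rose by 0.34 in the thalamus (adjusted p = 0.00490), and Aqp4, the water channel of astrocyte endfeet, rose by 0.68 in the cortex (adjusted p = 1.05e-05) and 1.07 in the thalamus (adjusted p = 4.41e-07). The difference between regions passed for Aqp4 (0.39, adjusted p = 0.0237), but not without rat 24, 50, 55 or 63 (highest adjusted p = 0.0795) or without the choroid-rich libraries (adjusted p = 0.107). Of 12 tested mural cell markers 5 rose in the cortex and 7 in the thalamus, and none fell. Of all loci 14.3% rose in the cortex and 14.5% in the thalamus.

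The remaining lists are given as counts, to be read against the shares of all loci: 14.3% rose and 14.9% fell in the cortex, while 14.5% rose and 20.9% fell in the thalamus. In tight junction genes outside the 10, 2 rose and 2 fell of 13 in the cortex, and 4 rose and 1 fell of 13 in the thalamus. In VEGF and angiopoietin signalling, 7 rose and 4 fell of 20 in each region. In the Wnt signalling that maintains the barrier, 4 rose and none fell of 18 in the cortex, and 3 rose and 3 fell of 18 in the thalamus. In caveolae, fenestration and permeability genes, 6 rose and 3 fell of 14 in the cortex, and 2 rose and 2 fell of 13 in the thalamus.

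The comparison of the regions asks where the barrier genes are higher without injury. In sham rats Cdh5 was lower in the thalamus than in the cortex by a log2 fold change of -0.49 (SE 0.065, adjusted p = 7.1e-06), and Mfsd2a was higher by 0.30 (SE 0.065, adjusted p = 0.000897). For both, the 6 values of one region did not overlap the 6 of the other, and the direction was the same in 6 of 6 rats. Flt1 (-0.17, adjusted p = 0.0321) and Abcb1a (-0.17, adjusted p = 0.0464) were also lower in the thalamus, in 6 of 6 rats. These 2 calls were lost in 5 and 8 of the 12 fits without 1 library, and both were lost without the choroid-rich libraries (adjusted p = 0.0884 for Flt1, and -0.11 with adjusted p = 0.332 for Abcb1a). Kdr did not pass (-0.32, adjusted p = 0.0728), but did so without the choroid-rich libraries (-0.46, adjusted p = 0.0212). Of the 10 genes 1 was higher and 3 were lower, against 62.2% of 15582 loci called (33.9% higher and 28.3% lower); wholly separate values were seen for 23.9% of loci upward and 19.2% downward.

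With the rat as a block the sham count went from 4 to 7 genes, 2 higher and 5 lower. Of all loci 63% were called with the block, so 7 of 10 is near the background share. Kdr (-0.32, adjusted p = 0.00711), Pecam1 (-0.14, adjusted p = 0.0408) and Slc2a1 (0.11, adjusted p = 0.0499) were the additions. With the block and TMM scaling together Slc2a1 did not pass (adjusted p = 0.0878). The block was not needed for the other additions. Pecam1, at adjusted p = 0.0508 in the main fit, also passed with TMM scaling (0.0319) and DESeq2 (0.00875), and Kdr with DESeq2 (0.0318). Leave-one-out fits aside, Pecam1 passed in 9 of 15 alternative settings and Kdr in 5 of 15, the block included. Pecam1 was lower in the thalamus in 6 of 6 sham rats and Slc2a1 higher in 6 of 6. In the wider list of endothelial junction and identity genes outside the 10, none was higher and 10 of 20 were lower in the sham thalamus. Of all loci 33.9% were higher and 28.3% lower there.

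In TBI rats the difference in Cdh5 and Mfsd2a was of a like size. Cdh5 was lower in the thalamus by -0.53 (SE 0.18, adjusted p = 0.0192) and Mfsd2a higher by 0.36 (SE 0.085, adjusted p = 0.00215), each in 6 of 6 rats. Ocln was higher in the thalamus by 0.38 (SE 0.14, adjusted p = 0.0261), in 5 of 6 rats, and the call was lost without the cortex of rat 52 or 56 (adjusted p = 0.0570 and 0.0613). So 2 of 10 genes were higher and 1 lower, against 57.5% of 15737 loci called (31% higher and 26.5% lower). Pecam1 and Flt1 were below the cortex in 6 of 6 sham rats and above it in 5 and 4 of 6 TBI rats, with values of 0.13 and 0.030 that did not pass (adjusted p = 0.152 and 0.706).

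**Figure D3:**
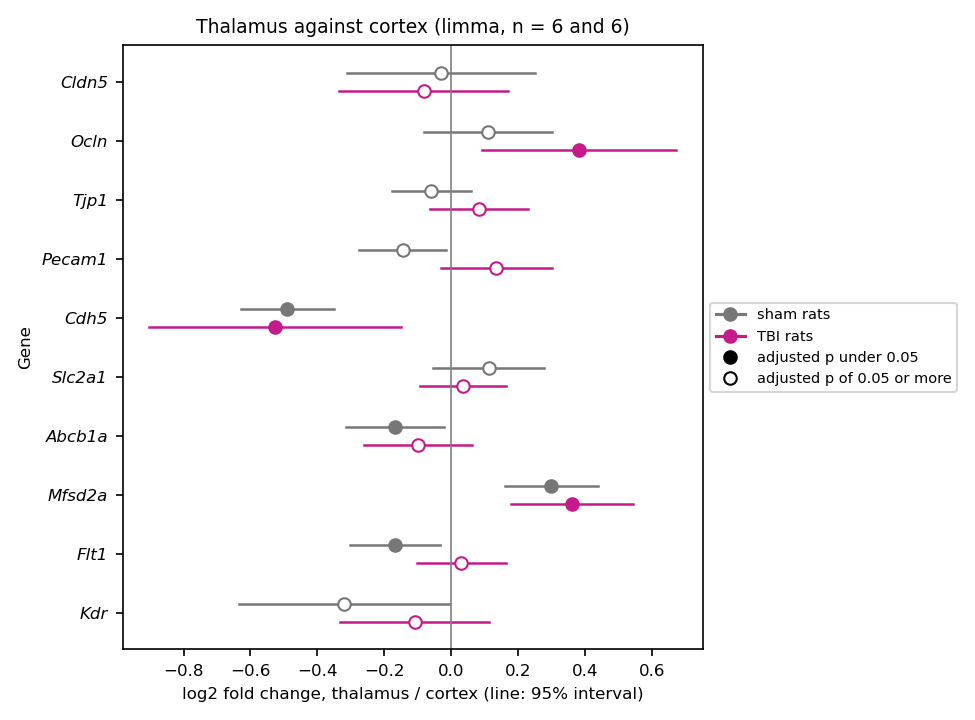
Log2 fold change of thalamus over cortex (x axis) for each of the 10 genes (y axis), in sham rats (grey) and TBI rats (magenta), with lines for the 95% interval of limma from 6 libraries of each region. Filled points have an adjusted p under 0.05; Cdh5 lies left of 0 and Mfsd2a right of 0 in both treatments, and the intervals of the 2 treatments overlap for every gene.

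A model with treatment, region and their interaction, fitted to the 24 libraries together, asked whether the TBI effect itself differed between regions. None of the 10 genes passed, against 7.26% of 15678 loci (2.72% higher and 4.54% lower in effect in the thalamus), and 2 had an unadjusted p under 0.05. edgeR called none, against 7.52% of loci, and DESeq2 called 1, against 9.64%. The largest difference among the 10 was that of Pecam1, whose effect was higher in the thalamus by 0.28 (SE 0.097, adjusted p = 0.0785). With the rat as a block it passed (adjusted p = 0.0435), but not with the block and TMM scaling together (adjusted p = 0.0525), and it was also the gene called by DESeq2 (adjusted p = 0.0376). Ocln followed at 0.27 (SE 0.17, adjusted p = 0.367), Kdr at 0.21 (SE 0.19, adjusted p = 0.564) and Flt1 at 0.20 (SE 0.091, adjusted p = 0.198). For Cdh5, called in the cortex and not in the thalamus, the difference was -0.037 with a 95% interval from -0.44 to 0.37, and for Mfsd2a it was 0.062, from -0.16 to 0.28. For Tjp1 it was 0.14, from -0.042 to 0.33.

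In the order of group means, neighbouring groups overlapped for every gene. The ratio of the highest to the lowest of the 4 means ran from 1.12 for Flt1 to 1.84 for Cdh5. The sham thalamus was the lowest group for 7 genes: Cldn5, Tjp1, Pecam1, Cdh5, Abcb1a, Flt1 and Kdr. Mfsd2a ran the other way, with its lowest mean in the TBI cortex (543) and its highest in the sham thalamus (777).

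The 10 genes did not vary as 1 block between rats of a group. After subtracting group means, 35 of the 45 pairs were positively correlated over the 24 libraries, with a median r of 0.28. Cldn5 and Slc2a1 were the closest pair at r = 0.81, and Ocln and Cdh5 followed at 0.79. Mfsd2a had a median r of -0.39 with the other 9, and its r with Cdh5 was -0.58, the lowest of all. Libraries share depth, scaling and dissection, so these values are given as a description without a test. Beyond the 10, Tie1 was the locus most like Slc2a1 (r = 0.89), Ptprb, an endothelial phosphatase, was most like Flt1 (0.85), and Rgs5 was most like Abcb1a (0.75), among 13750 loci. Those most like Cldn5, Ocln, Tjp1, Pecam1, Mfsd2a and Kdr were Slc27a1, Tgfbr2, Smad4, B3gntl1, Atxn7l3 and Smpdl3a, with r of 0.92, 0.89, 0.91, 0.77, 0.85 and 0.82.

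**Figure D4:**
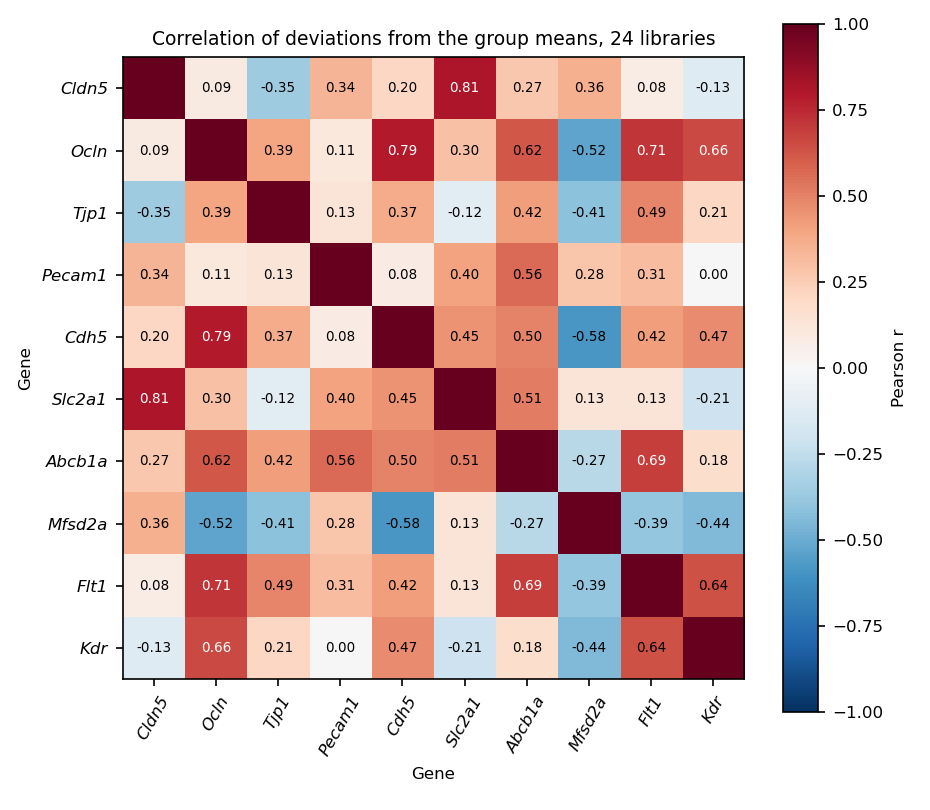
Pearson correlation (colour scale, from -1 to 1) between each pair of the 10 genes (both axes), on log2 values after subtraction of group means, over 24 libraries. Most cells are positive and the row of Mfsd2a is mostly negative, down to -0.58 with Cdh5.

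**Figure D5:**
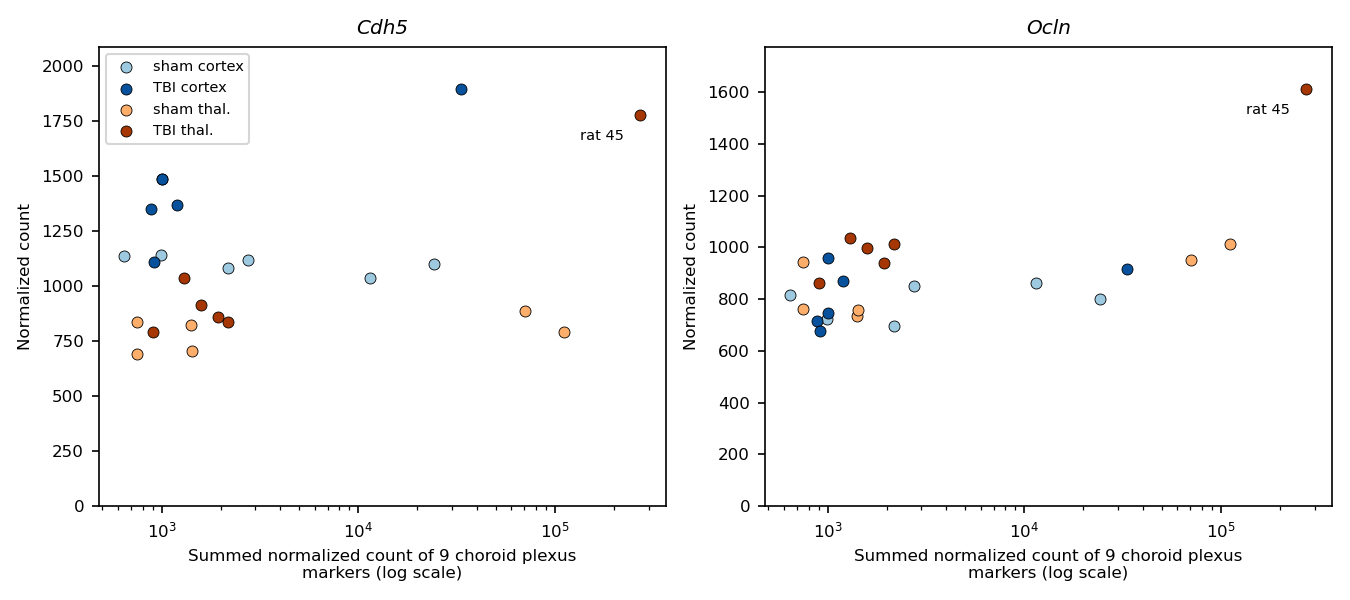
Normalized count of Cdh5 (left) and Ocln (right; y axes linear, from 0) against the summed normalized count of 9 choroid plexus markers (x axes, log scale), with 1 point for each of the 24 libraries coloured by group. The thalamus of TBI rat 45, at a sum of 272010, holds the highest Ocln value (1614), and in the Cdh5 panel it and the cortex of the same rat (1898) stand highest.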

How the data were processed

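The libraries were made from poly(A) RNA with a stranded kit and sequenced by Illumina chemistry, work that the paper places at Exiqon Services. Reads were aligned with TopHat2 2.0.11 and Bowtie2 2.2.2 and assembled with Cufflinks 2.2.1, with Ensembl's Rnor_5.0 genes as a guide, and coordinates are printed as the deposited table has them. The methods name RGSC3.4 as the aligned genome and the submitters' processing notes name Rnor_5.0. The deposited signal values are fragment counts per locus divided by a size factor of each library; dividing by the value of 1 fragment gave whole numbers for 100% of low values in each library (tolerance 0.01), so the fragments could be recovered. Loci without a name (37.1% of loci, 1.90 to 2.23% of the counts) were left out.

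Values were tested as log2(value + 1) with limma 3.58.1 (lmFit and eBayes with trend, two-sided) on loci whose mean reached 10 among the fitted libraries, with Benjamini-Hochberg adjustment over all loci and a threshold of 0.05. The study used Cuffdiff, which needs the alignments. Each comparison used its own 12 libraries, and the interaction all 24. Samples were grouped by their titles, which also carry the rat number. Both regions of a rat share that number, and after subtraction of group means the same-rat correlation across loci had a median of 0.187 (0.00393 to 0.569; 10 of 12 above 0.1), against -0.0332 between rats. Alternatives covered scaling (TMM, upper quartile), other filters and pseudocounts (0.1 and 5), a threshold of 0.01, limma-voom, edgeR 4.0.16 and DESeq2 1.42.0 on the recovered fragments, 1 fit of all libraries, the sum of loci of a name, the rat as block, and each library left out. For the interaction both libraries of a rat were left out together. Fits without choroid-rich libraries (a marker sum of 10000 or more), and the block with TMM scaling, were added after seeing the data. The genes and lists were chosen with earlier results of these data known. Every one of the 10 genes is named, then genes chosen for their role (1 of them is not reported here), and for likeness the 3 loci with the highest Pearson r among named loci with a mean of at least 50. The self-test drew simulated counts with known changes in 200 loci. For a log2 change of 0.4 it recovered 44.7% of changed genes in the cortex and 46.5% in the thalamus. In the data 29.2% and 35.4% of loci were called, a far larger part, so these shares do not give the power of the real comparisons. Python 3.11.15, pandas 2.3.3 and matplotlib 3.10.9 made the summaries and figures. No sequence is shown.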

Additional observations from a re-analysis of the deposited data

Results flagged for a closer look

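Ocln in the thalamus of TBI rat 45 was 1614 normalized counts, against 1035 in the next library. Its gap took 0.770 of the range of the 6 TBI thalamus libraries, above Dixon's critical value of 0.625.

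Cdh5 in the same library was 1777 normalized counts, against 1039 in the next, a gap of 0.750 of the range. The library also held the highest summed choroid plexus markers (272010) and the highest fibroblast and meninges markers of its group (32248), and it was the highest of its group for 6 of the 10 genes; the part of these transcripts in the values was not tested. Of 40 gene and group combinations 2 stood out in this way, where chance gives about 1 in 20.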

How the results depend on the processing

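Over the 10 genes and 5 comparisons, 1206 of 1300 alternative fits kept both direction and side of the threshold, 37 lost a call, 39 gained one and 18 changed sign. Among the role-chosen genes 1618 of 1708 kept both, 82 lost a call and 8 gained one.

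Of the 10 genes, the number called in the cortex was 3; it was 1 at a threshold of 0.01, 0 without the choroid-rich libraries, and 1 to 4 with 1 library left out (1 without sham rat 34). Of all loci 29.2% were called in the cortex, 15.7% at a threshold of 0.01 and 14% without the choroid-rich libraries. In the thalamus the number of the 10 genes was 2, and 4 with upper quartile scaling, 6 with DESeq2 and 4 without the choroid-rich libraries. The shares of all loci were 35.4%, 32.7%, 36.6% and 27.3% in that order. For the regions in sham rats the number was 4, and 2 at a threshold of 0.01 and 7 with the rat as a replicate block. It was 2 to 5 with 1 library left out (2 without the cortex of rat 26, 34 or 50 or the thalamus of rat 38 or 55). The shares of all loci were 62.2%, 52.2% at the threshold of 0.01 and 63% with the block. In TBI rats the number was 3, and 1 at a threshold of 0.01, against 57.5% and 45.6% of all loci. The interaction called 0, and 1 with DESeq2 and with the replicate block, against 7.26%, 9.64% and 8.3% of all loci. The block changed no call of the 10 genes between regions in TBI rats. The cause of these changes was not tested.

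Signs changed only in log2 fold changes near 0 that were not called. Leaving out 1 library, Ocln in the cortex ranged from -0.017 to 0.083, Cldn5 between regions in sham rats from -0.10 to 0.087, and Flt1 in TBI rats from -0.0032 to 0.062. In the interaction both libraries of 1 rat were left out together, and Cldn5 ranged from -0.15 to 0.039 and Cdh5 from -0.12 to 0.022. Without the choroid-rich libraries Slc2a1 (-0.0016) and Flt1 (-0.0040) changed sign between regions in TBI rats, and Abcb1a in the interaction (-0.042). With DESeq2 the interaction of Cdh5 was 0.016. Leaving out a library with 6 per group takes that group to 5. The lowest normalized count of the 10 genes in any library was 514.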
